A study of Homo sapiens with 12 samples.

Results

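The genes described here are the SR proteins, hnRNPs and other splicing factors of SK-UT-1 cells, a human uterine leiomyosarcoma cell line. They were taken from the deposited expression table by symbol: names starting with SRSF, HNRNP, SF3A, SF3B or PRPF, and RBM or U2AF followed by a digit. This gave 125 of the 22784 symbols: 13 SRSF, 41 HNRNP, 14 SF3A, SF3B or U2AF, 14 PRPF and 43 RBM entries. Of the 125, 97 are protein-coding genes in Gencode, 22 are pseudogenes and 6 are noncoding or unconfirmed transcripts, so a symbol of the family does not always stand for a splicing factor. RNA-seq compared 3 groups of libraries, all from the same line and all harvested after 48 h. The vehicle group received DMSO (3 libraries, replicates 13, 14 and 15), and the treated groups received JQ1 at 5 µM (4 libraries, replicates 17, 18, 19 and 20) or I-BET 762 at 5 µM (3 libraries, replicates 21, 22 and 23). Both compounds inhibit the bromodomains of the BET proteins, which read acetylated histones. The labels do not say whether replicates were separate cultures, so p-values measure the spread between these libraries, which may be technical, and a single cell line stands for the tumour. Values for each gene are given below in this order of replicates.

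Pre-mRNA splicing is carried out by the spliceosome, which is built on each intron from small nuclear ribonucleoproteins (snRNPs). SR proteins bind exons through RNA recognition motifs and recruit the machinery through arginine and serine rich tails, while hnRNPs coat the transcript and often act against them. U2AF and the SF3A and SF3B complexes define the 3′ splice site and the branch point, the PRPF proteins belong mostly to the U1 snRNP, the tri-snRNP and the catalytic steps, and the RBM genes are a mixed family named for their RNA-binding motif. Many SR and hnRNP genes control their own transcripts through exons that trigger decay of the message, which gene-level counts do not resolve.

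Reads assigned to genes numbered 35564586 to 38899935 per library in DMSO, 35691648 to 39658989 with JQ1 and 37733027 to 38404997 with I-BET 762. All values below are normalized counts, that is reads divided by a size factor per library, and 1 read was worth close to 1 normalized count. The table left out 2 labelled libraries (DMSO 16 and I-BET 762 24), which are not analysed here. Of the smooth muscle markers, 9 of 10 were listed and their summed level was 36527 to 38431 in DMSO, 22897 to 23149.9 with JQ1 and 23229.8 to 23692 with I-BET 762. Among them DES averaged 187 in DMSO and 7.8 with JQ1, while SMTN went the other way, at 2324 and 2644. MYH11 was not listed, and every endothelial and leukocyte marker listed (7 of 8) stayed under 10 in all libraries. The mesenchymal markers summed to 127752 to 136903 in DMSO, 159569 to 171847 with JQ1 and 136538 to 140092 with I-BET 762, with lower COL1A1 and COL1A2 in both treated groups. The part of the fall in smooth muscle markers in the results below was not tested. In such bulk libraries, a smaller number of cells with a transcript and less of it per cell cannot be told apart.

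Start sites of 7 members are shown first because their genes carry the results: a pair of coding genes and the noncoding RNAs that start beside them, of which only the noncoding partner passed a fold change of 1.5, and the PRPF4, RBM18 and SRSF12 genes, which passed it with both. Each window runs from 250 bases before to 50 bases after the RefSeq start on GRCh38.p14, 5′ to 3′ on the gene's own strand. HNRNPD lies at chr4:82373942-82374241 (minus strand), HNRNPD-DT at chr4:82374318-82374617 (plus), RBM26 at chr13:79406206-79406505 (minus) and RBM26-AS1 at chr13:79406059-79406358 (plus). PRPF4 lies at chr9:113275408-113275707 (plus), RBM18 at chr9:122264791-122265090 (minus) and SRSF12 at chr6:89118022-89118321 (minus). Capitals mark matches, on either strand, to 5 short motifs: the E-box CACGTG, the ETS motif CCGGAAG, the GC box GGGCGG, the CCAAT box CCAAT and the TATA box TATAAA.
HNRNPD: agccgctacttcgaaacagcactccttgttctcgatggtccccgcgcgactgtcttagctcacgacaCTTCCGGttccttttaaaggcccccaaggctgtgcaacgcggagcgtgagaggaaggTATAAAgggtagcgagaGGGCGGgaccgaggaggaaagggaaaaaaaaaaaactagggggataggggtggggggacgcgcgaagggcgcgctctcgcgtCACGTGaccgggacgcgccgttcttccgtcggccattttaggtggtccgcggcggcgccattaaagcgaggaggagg
HNRNPD-DT: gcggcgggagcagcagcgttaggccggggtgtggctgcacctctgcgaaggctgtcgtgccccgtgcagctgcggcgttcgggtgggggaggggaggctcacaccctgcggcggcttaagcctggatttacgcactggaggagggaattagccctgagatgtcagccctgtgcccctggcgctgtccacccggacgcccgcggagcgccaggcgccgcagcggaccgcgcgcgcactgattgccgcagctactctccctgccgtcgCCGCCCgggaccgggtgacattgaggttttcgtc
RBM26: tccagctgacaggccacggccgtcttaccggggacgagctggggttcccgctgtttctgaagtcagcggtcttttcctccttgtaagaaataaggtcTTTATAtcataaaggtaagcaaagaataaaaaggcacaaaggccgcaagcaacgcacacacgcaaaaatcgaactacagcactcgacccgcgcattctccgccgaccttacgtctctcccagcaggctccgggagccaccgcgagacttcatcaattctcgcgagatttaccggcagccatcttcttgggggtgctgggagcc
RBM26-AS1: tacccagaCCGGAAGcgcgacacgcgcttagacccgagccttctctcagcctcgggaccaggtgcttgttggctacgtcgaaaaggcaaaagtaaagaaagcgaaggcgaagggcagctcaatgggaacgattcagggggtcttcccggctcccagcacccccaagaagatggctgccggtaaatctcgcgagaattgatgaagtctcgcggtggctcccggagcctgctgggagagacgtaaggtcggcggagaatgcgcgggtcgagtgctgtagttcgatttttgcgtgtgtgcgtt
PRPF4: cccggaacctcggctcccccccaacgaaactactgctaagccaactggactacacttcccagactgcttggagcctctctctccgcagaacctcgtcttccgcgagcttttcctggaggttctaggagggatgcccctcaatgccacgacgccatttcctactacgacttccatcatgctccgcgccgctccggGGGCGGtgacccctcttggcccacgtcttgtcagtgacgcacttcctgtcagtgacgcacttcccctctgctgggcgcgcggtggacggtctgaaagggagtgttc
RBM18: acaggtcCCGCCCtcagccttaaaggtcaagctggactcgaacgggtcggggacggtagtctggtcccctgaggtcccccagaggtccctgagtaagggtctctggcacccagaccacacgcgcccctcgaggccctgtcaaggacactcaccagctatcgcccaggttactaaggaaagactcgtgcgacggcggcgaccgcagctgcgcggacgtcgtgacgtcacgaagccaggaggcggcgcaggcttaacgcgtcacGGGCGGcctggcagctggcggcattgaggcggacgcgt
SRSF12: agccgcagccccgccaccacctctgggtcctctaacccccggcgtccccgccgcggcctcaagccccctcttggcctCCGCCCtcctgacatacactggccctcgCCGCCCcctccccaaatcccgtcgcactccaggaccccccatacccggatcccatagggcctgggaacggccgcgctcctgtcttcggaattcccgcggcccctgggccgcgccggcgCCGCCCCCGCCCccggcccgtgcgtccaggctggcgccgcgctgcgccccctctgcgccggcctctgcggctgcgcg
The starts of HNRNPD and HNRNPD-DT are 577 bases apart and those of RBM26 and RBM26-AS1 are 54 bases apart, so the last 2 windows overlap by 153 bases, read from opposite strands. Across 35116 RefSeq windows of this length, the E-box was found in 7.26%, the ETS motif in 10.3%, the GC box in 45%, the CCAAT box in 34.6% and the TATA box in 11.5%. Across the 109 windows of the 90 members that had one, the shares were 12.8%, 21.1%, 60.6%, 45.9% and 8.26%. Among the windows shown, SRSF12 held 4 GC box matches and RBM18 held 2, HNRNPD held an E-box and an ETS match, and no motif overlapped another. A match is a run of letters, not a measured binding site.

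After treatment most splicing factor genes moved little, and more of them moved up than down on the deposited scale. Against DMSO, 53 of the 102 members that could be tested rose with JQ1 and 15 fell (limma over all 14839 genes with a normalized count of at least 10 in at least 3 libraries, Benjamini-Hochberg adjusted p under 0.05). Over all genes tested, 36.0% rose and 35.6% fell. With I-BET 762, 47 members rose and 12 fell, where 29.9% of all genes rose and 31.3% fell. The median log2 fold change of the members was 0.16 with JQ1 and 0.14 with I-BET 762, beside 0.0076 and -0.00063 over all genes. Calls that also needed a fold change over 1.5, named DEGs here, were fewer: 7 members up and 7 down with JQ1, against 13.3% up and 22.8% down over all genes, and 4 up and 3 down with I-BET 762, against 8.96% and 17.9%. In absolute size, the median change on the log2 scale was 0.26 for members and 0.43 for all genes with JQ1, and 0.21 and 0.33 with I-BET 762. Members also sat at higher counts, with a median of 3826 normalized counts per library against 809 over all tested genes. Among the 11072 genes with a mean of at least 100, the median signed shift stood higher than over all genes. On the log2 scale it reached 0.071 for JQ1 and 0.037 for I-BET 762. How much of the members' upward shift goes with their count level was not tested.

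The direction of the small changes depended on the scaling. Normalized totals were 34444558 to 35683740 in DMSO and 39218686 to 41845407 with JQ1, and setting all library totals equal moved the median of all genes to -0.18 with JQ1 and -0.10 with I-BET 762. On that scale 27 members rose and 36 fell with JQ1, and 30 rose and 19 fell with I-BET 762. The shares of all genes that rose or fell with equal totals are not given here. These and all later counts with equal totals therefore have no background beside them. The members' median lay 0.15 above that of all genes on the deposited scale and 0.15 above it with equal totals for JQ1, and 0.14 above it on both scales for I-BET 762. Setting totals equal divides each library by a single factor, which moves all genes nearly alike. This difference could therefore hardly change, and it is no check of the scaling. Nor does it allow for the higher counts of the members. Under the deposited, equal-total and equal-upper-quartile scalings alike, 27 members rose and 15 fell with JQ1, and 30 rose and 12 fell with I-BET 762. A change below that passed the test also passed in the same direction under all of these scalings, unless a sentence says otherwise or limits it to the deposited scale. Equal upper quartiles also moved the median of all genes down, to -0.057 with JQ1 and -0.037 with I-BET 762. Both other scalings thus made falls larger, so passing under all of them checks the rises and not the falls. Differences that did not pass are given on the deposited scale, and no direction is read from them. As a share of all normalized counts, the 125 members made up 1.79 to 1.86% in DMSO, 1.86 to 1.92% with JQ1 and 1.89 to 1.93% with I-BET 762.

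**Figure D1:**
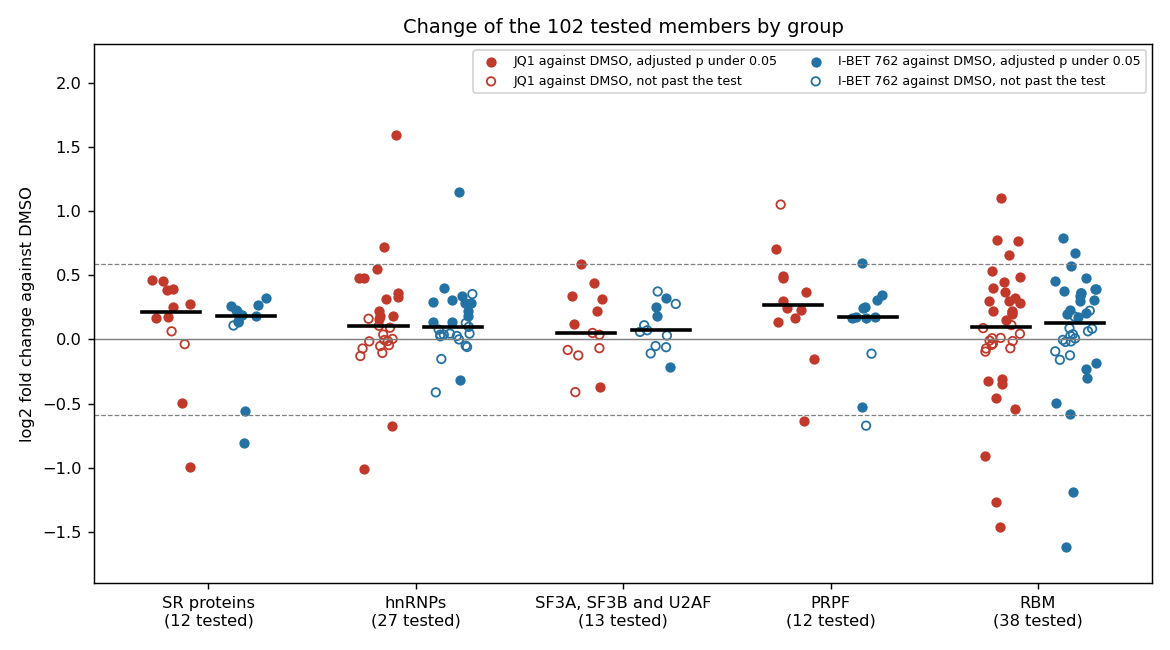
Log2 fold change against DMSO (vertical axis) of each of the 102 tested members, by group of genes, for JQ1 (red) and I-BET 762 (blue); filled points passed the test at an adjusted p under 0.05, black bars are medians and dashed lines mark a fold change of 1.5. Most points lie between the dashed lines, with group medians from 0.05 to 0.27 for JQ1, and the points furthest from 0 are noncoding RNAs or genes of low count.

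Among the 12 SR protein genes tested, 8 rose and 2 fell with each inhibitor, and with equal totals 5 rose and 4 fell with JQ1 and 5 rose and 2 fell with I-BET 762. For this and the group counts that follow, the shares over all genes on the deposited scale were 36.0% up and 35.6% down with JQ1. With I-BET 762 they were 29.9% and 31.3%. SRSF2, which binds exonic enhancers and is a frequent target of mutation in blood cancers, had 13097, 14165 and 13508 in the DMSO libraries, 19548, 18270.0, 18927 and 17906 with JQ1 and 16276, 16451 and 15967 with I-BET 762 normalized counts. All treated libraries lay above the DMSO libraries, and the JQ1 libraries lay above those of I-BET 762. The log2 fold change of SRSF2 was 0.46 (SE 0.047, adjusted p = 2.46e-07) with JQ1 and 0.26 (SE 0.05, adjusted p = 0.000335) with I-BET 762. SRSF7, an export adaptor for mRNA, had 9029, 10099 and 9778 in the DMSO libraries, 12945, 14831, 12618 and 12769 with JQ1 and 11166, 11494 and 10984 with I-BET 762, a rise of 0.46 and 0.22 on the log2 scale. SRSF5 rose by 0.38 and 0.23, SRSF9, a relative of SRSF1, by 0.39 and 0.32, and SRSF10, a repressor when dephosphorylated, by 0.27 and 0.27. SRSF6 (0.25 and 0.18) rose on the deposited scale but did not pass with equal totals. SRSF3 (0.17 and 0.19) and SRSF11 (0.16 and 0.14) also rose on the deposited scale with both inhibitors, and with equal totals neither passed with either inhibitor and their JQ1 values turned to -0.011 and -0.021, and the JQ1 value of SRSF3 did not pass with equal upper quartiles.

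SRSF1, the founding member of the family and a known oncogene, did not pass the test with either inhibitor on the deposited scale: 8064, 8407 and 8210.3 in the DMSO libraries, 8317, 9064, 8081 and 8941 with JQ1 and 8615, 8885 and 9565 with I-BET 762 normalized counts, with log2 fold changes of 0.063 (adjusted p = 0.292) and 0.13 (adjusted p = 0.0508). With equal totals SRSF1 passed as a fall with JQ1, at -0.12. Its I-BET 762 value lay at the threshold and passed in limma-voom (adjusted p = 0.0497), with a mean of at least 100 required (0.0476), with only the I-BET 762 and DMSO libraries fitted (0.00887) and without I-BET 762 21, JQ1 18, JQ1 19 or JQ1 20. SRSF4 did not pass either, at -0.037 and 0.11, and passed as a fall with JQ1, at -0.22, with equal totals.

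The 2 SR genes that fell were SRSF8 and SRSF12, each a less expressed relative of a gene that rose. SRSF8, an intronless copy of SRSF2, had 1401, 1562 and 1495 in the DMSO libraries, 1144, 968, 1123 and 994 with JQ1 and 979, 1012 and 1031 with I-BET 762 normalized counts. Every treated library lay below every DMSO library, with log2 fold changes of -0.49 (SE 0.068, adjusted p = 7.15e-06) and -0.56 (SE 0.072, adjusted p = 6.22e-06). With equal totals both passed the fold threshold, at -0.68 and -0.66. Per kilobase of exon in DMSO, SRSF8 stood at 345 and SRSF2 at 4567 normalized counts. SRSF12, a close relative of SRSF10 (chr6:89095959-89118071 on hg38), had 79.4, 68.4 and 84.6 in the DMSO libraries, 45.1, 33.7, 42.0 and 33.5 with JQ1 and 39.4, 43.1 and 49.2 with I-BET 762. It was a DEG with both inhibitors, at -0.99 (SE 0.18, adjusted p = 0.000117) and -0.81 (SE 0.19, adjusted p = 0.00178), with no overlap between treated and DMSO libraries. Per kilobase of exon in DMSO, SRSF12 stood at 17.1 and SRSF10 at 919 normalized counts.

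Of the 27 HNRNP entries tested, 12 rose (44.4%) and 2 fell (7.41%) with JQ1 and 11 rose (40.7%) and 1 fell (3.7%) with I-BET 762. With equal totals 7 rose and 10 fell, and 8 rose and 3 fell. The core A and C proteins, which package nascent transcripts, showed no change past the test in HNRNPA1 and HNRNPC on the deposited scale. HNRNPA1 had 26582, 29963 and 29578 in the DMSO libraries, 28324, 31020.5, 26856 and 27636 with JQ1 and 28765, 30173 and 28532 with I-BET 762 normalized counts, with log2 fold changes of -0.013 and 0.024 and 95% intervals of -0.14 to 0.11 and -0.11 to 0.16. HNRNPC had 0.091 and 0.037, with intervals of -0.045 to 0.23 and -0.11 to 0.18. The groups overlapped for both genes. With equal totals HNRNPA1 passed as a fall with JQ1 (-0.20, adjusted p = 0.000789), and HNRNPC stood at -0.094 with JQ1 and -0.059 with I-BET 762, not past the test. Of their exon stretches of 75 bases, 12.5% and 8.9% occur more than once in the primary assembly, and the handling of reads with several matches was not stated.

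HNRNPH1, which binds runs of G, had 31757, 33267 and 33857 in the DMSO libraries, 50006, 49489, 45547 and 48084 with JQ1 and 42027, 43785 and 44728 with I-BET 762 normalized counts. All treated libraries were above all DMSO libraries, with log2 fold changes of 0.55 (SE 0.051, adjusted p = 9.13e-08) and 0.40 (SE 0.055, adjusted p = 1.19e-05). HNRNPU, a nuclear matrix and chromatin-associated RNA-binding protein, had 33359, 36092 and 37607 in the DMSO libraries, 52464, 48219.9, 50939 and 46765 with JQ1 and 42435, 44222 and 44529 with I-BET 762, or 0.48 and 0.29 on the log2 scale, again without overlap. HNRNPA2B1 rose by 0.33 with JQ1 and 0.18 with I-BET 762, the latter only on scales other than equal totals, and HNRNPDL rose by 0.48 and 0.33. HNRNPK and HNRNPL, binders of C-rich and CA-rich sequence, and HNRNPM were within 0.0037 to 0.18 with JQ1 and 0.045 to 0.13 with I-BET 762. Of these, HNRNPK passed with JQ1 (adjusted p = 0.00763) and HNRNPL with I-BET 762 (adjusted p = 0.0383), and with equal totals neither of these rises passed, and the JQ1 values were -0.0014 for HNRNPK and -0.18 for HNRNPL, the latter past the test as a fall. HNRNPM did not pass on either scale and stood at -0.079 with JQ1 and -0.051 with I-BET 762 with equal totals.

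HNRNPAB was the only coding hnRNP called up, and with JQ1 alone (chr5:178204533-178211163). It had 7008, 7644 and 8144 in the DMSO libraries, 13465, 12374, 12617 and 11627 with JQ1 and 9034, 9669.7 and 9382 with I-BET 762 normalized counts. The 3 groups did not overlap, with I-BET 762 between DMSO and JQ1, and the log2 fold changes were 0.72 (SE 0.058, adjusted p = 1.59e-08) and 0.30 (SE 0.062, adjusted p = 0.000552); with equal totals the JQ1 value was 0.54, below the fold threshold. HNRNPUL1, which acts in RNA metabolism and in the response to DNA breaks, was the mirror image (chr19:41262496-41307787). It had 8970.3, 8548 and 8813 in the DMSO libraries, 5776, 5220.3, 5463 and 5595 with JQ1 and 7064, 7218 and 6839 with I-BET 762, so JQ1 was lowest, I-BET 762 intermediate and DMSO highest without overlap. HNRNPUL1 fell by 0.67 (SE 0.046, adjusted p = 2.13e-09) with JQ1, a DEG, and by 0.32 (SE 0.049, adjusted p = 3.82e-05) with I-BET 762. The pseudogene HNRNPA1P6 was also called down with JQ1, from 41.6, 23.1 and 25.5 in DMSO to 15.4, 17.4, 10.004 and 14.2, with 18.7, 21.1 and 25.6 under I-BET 762.

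HNRNPD, also named AUF1, binds AU-rich elements and marks messages for decay. It had 5022, 4871 and 4981 in the DMSO libraries, 5186, 5039, 5245 and 4897 with JQ1 and 5259, 5453 and 5606 with I-BET 762 normalized counts, with log2 fold changes of 0.038 (adjusted p = 0.447) and 0.13 (adjusted p = 0.0214); with equal totals the JQ1 value was -0.15 and passed as a fall, and the I-BET 762 value did not pass. The noncoding RNA that starts on the other strand, HNRNPD-DT (chr4:82374142-82384027), had 26.1, 31.4 and 29.1 in the DMSO libraries, 98.9, 100.1, 110.0 and 56.8 with JQ1 and 50.2, 87.2 and 63.0 with I-BET 762. All treated libraries were above all DMSO libraries, and the log2 fold changes of 1.59 (SE 0.23, adjusted p = 1.43e-05) and 1.15 (SE 0.25, adjusted p = 0.000852) were the largest rises among members that passed the test. A similar pair was RBM26 and RBM26-AS1. RBM26 had 2585, 2643 and 2641 in the DMSO libraries, 2421, 2494, 2396 and 2513 with JQ1 and 2683, 2707 and 2698 with I-BET 762 and did not pass on the deposited scale (-0.10, adjusted p = 0.0584, and 0.04). With JQ1 it passed as a fall with equal totals (-0.28, adjusted p = 2.11e-05), with equal upper quartiles (-0.16, adjusted p = 0.00237) and without JQ1 18 or JQ1 20. RBM26-AS1 (chr13:79406293-79427317) had 34.9, 28.7 and 14.6 in the DMSO libraries, 54.9, 57.7, 51.0 and 51.7 with JQ1 and 50.2, 35.1 and 45.3 with I-BET 762, with log2 fold changes of 1.10 (SE 0.25, adjusted p = 0.000981) and 0.79 (SE 0.27, adjusted p = 0.0186). Without DMSO 15, its I-BET 762 value was 0.43 with an adjusted p of 0.117, and it also did not pass without I-BET 762 21 or 23. In Gencode both noncoding RNAs overlap their partner on the opposite strand. Since the strand setting of the counting was not stated, reads of the partners may be mixed. The RefSeq starts used for the windows point away from each other, 577 and 54 bases apart, so the annotations differ here. The Gencode entry of HNRNPD-DT begins before its RefSeq window. The windows of both pairs are printed above: HNRNPD holds 4 motif matches, while its partner HNRNPD-DT holds a single GC box match.

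**Figure D2:**
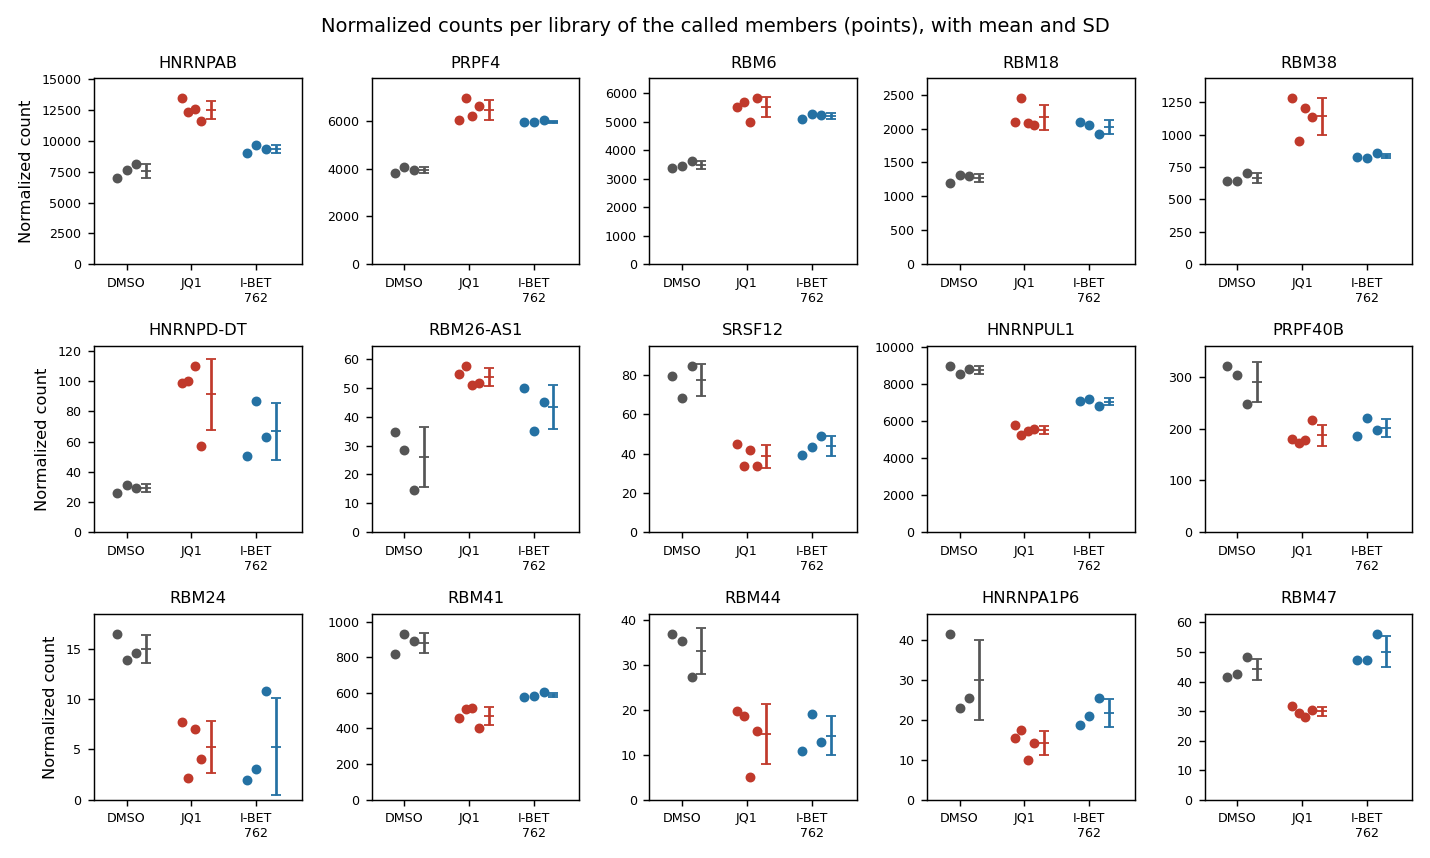
Normalized counts (vertical axis, from 0) of the 14 members called against DMSO with either inhibitor and of RBM47, called between the inhibitors, in each of the 3 DMSO, 4 JQ1 and 3 I-BET 762 libraries; points are libraries and bars show the mean and SD. In HNRNPAB, RBM38, HNRNPUL1 and RBM41 the 3 groups are separate, with I-BET 762 between DMSO and JQ1, and in RBM47 the JQ1 libraries are lower than all others.

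At the 3′ splice site and branch point, 6 of 13 entries rose (46.2%) and 1 fell (7.69%) with JQ1 and 3 rose (23.1%) and 1 fell (7.69%) with I-BET 762, none a DEG. The share that rose with I-BET 762 was below the 29.9% of all genes. With equal totals 1 rose and 5 fell, and 1 rose and 2 fell. U2AF2, which binds the polypyrimidine tract, had 8116, 8751 and 8754 in the DMSO libraries, 12141, 11059.7, 12277 and 10953 with JQ1 and 10660.4, 11052 and 10392 with I-BET 762 normalized counts. It was the member of this group that rose under every scaling, by 0.44 (SE 0.053, adjusted p = 1.49e-06) and 0.33 (SE 0.056, adjusted p = 0.000117), with no overlap between treated and DMSO libraries. SF3B1, which clamps the branch site and is mutated in several cancers, had 29030.0, 30826 and 30820.0 in the DMSO libraries, 33043, 40177, 33713 and 34373 with JQ1 and 34561, 35055 and 33059.5 with I-BET 762 and rose by 0.22 and 0.18 on the deposited scale, with 0.036 and 0.083 and no pass with equal totals. SF3B3, a propeller-shaped scaffold of the same complex, went the other way with JQ1. It had 18625, 18372 and 18315 in the DMSO libraries, 13122, 15122, 13421 and 15473 with JQ1 and 17807, 17634 and 17583 with I-BET 762, and fell by 0.37 (SE 0.056, adjusted p = 2.1e-05) with JQ1, with every JQ1 library below every other library. With I-BET 762 its log2 fold change was -0.061 (adjusted p = 0.399), and with equal totals it passed as a fall, at -0.16 (adjusted p = 0.0206). SF3B6, a subunit of the SF3B complex, had 5822, 6721 and 6417 in the DMSO libraries, 8129, 9160.0, 8024 and 6716 with JQ1 and 6608, 6485 and 6240.2 with I-BET 762. Its log2 fold change was 0.34 with JQ1, not past the test with equal totals. SF3A1 and SF3A3, of the SF3A complex, did not pass with either inhibitor on the deposited scale, at 0.036 and 0.05 with JQ1, and with equal totals SF3A1 stood at -0.15 with JQ1, also not past the test.

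The PRPF group had the highest median change of the 5 groups with JQ1 on the deposited scale, 0.27, and with I-BET 762 its median of 0.17 was below the 0.18 of the SR proteins. Of 12 tested, 9 rose and 2 fell with JQ1 and 9 rose and 1 fell with I-BET 762; with equal totals 5 rose and 2 fell with each. PRPF4, a WD-repeat protein of the U4/U6 snRNP (chr9:113275642-113294009), had 3835, 4084 and 3969 in the DMSO libraries, 6036, 6960.1, 6221 and 6634 with JQ1 and 5964, 5949 and 6030.5 with I-BET 762 normalized counts. Every treated library exceeded every DMSO library, and the I-BET 762 libraries lay just below those of JQ1. The log2 fold changes were 0.70 (SE 0.051, adjusted p = 4.4e-09) and 0.59 (SE 0.055, adjusted p = 1.46e-07), which with equal totals became 0.52 and 0.50, past the test and below the fold threshold. Its partner in the same particle, PRPF3, rose by 0.17 and 0.17, and PRPF6, which bridges the tri-snRNP, by 0.13 and 0.17; with equal totals neither passed with either inhibitor, and their JQ1 values were -0.019 and -0.052, and with equal upper quartiles neither JQ1 value passed. PRPF19, the ubiquitin ligase of the NTC complex, rose by 0.24 and 0.25, under every scaling with I-BET 762 but not with equal totals for JQ1. PRPF39 of the U1 snRNP rose by 0.48 and 0.31, and PRPF38B by 0.49 and 0.35. PRPF40B fell (chr12:49568218-49644666). Its values were 322, 305 and 248 in the DMSO libraries, 180.2, 172, 179 and 217 with JQ1 and 186, 221 and 198 with I-BET 762, with log2 fold changes of -0.63 (SE 0.12, adjusted p = 0.000148), a DEG, and -0.52 (SE 0.12, adjusted p = 0.00182), just under the fold threshold (-0.62 with equal totals), and no overlap with DMSO.

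Among 38 RBM entries tested, 18 rose and 8 fell with JQ1 and 16 rose and 7 fell with I-BET 762; with equal totals 9 rose and 15 fell, and 11 rose and 10 fell. RBM38, an RNA-binding protein induced by p53 that stabilizes the message of CDKN1A (chr20:57391396-57409333), had 640.2, 643 and 706 in the DMSO libraries, 1280.1, 948, 1206 and 1137 with JQ1 and 830.5, 822 and 855 with I-BET 762 normalized counts. The JQ1 libraries were highest, I-BET 762 lay between, and no groups overlapped. The log2 fold change was 0.78 (SE 0.085, adjusted p = 5.58e-07) with JQ1 and 0.33 (SE 0.091, adjusted p = 0.00461) with I-BET 762; the latter did not pass with equal totals. RBM18 (chr9:122237622-122264840) had 1203, 1310.0 and 1306 in the DMSO libraries, 2099.8, 2447, 2077 and 2059.9 with JQ1 and 2105, 2054 and 1917 with I-BET 762. It was a DEG with both, at 0.77 (SE 0.065, adjusted p = 2.79e-08) and 0.67 (SE 0.069, adjusted p = 5.72e-07), and its JQ1 and I-BET 762 libraries overlapped each other but not DMSO; with equal totals both values were just below the fold threshold, at 0.58 and 0.57. RBM6, a relative of the tumour suppressor RBM5, had 3385, 3447 and 3641 in the DMSO libraries, 5515, 5711, 5013 and 5829 with JQ1 and 5086, 5279 and 5228 with I-BET 762 (chr3:49940007-50100045). RBM6 rose by 0.66 (SE 0.053, adjusted p = 1.61e-08) with JQ1 and by 0.57 (SE 0.057, adjusted p = 3.45e-07) with I-BET 762, values on either side of the fold threshold of 0.58; with equal totals the JQ1 value was 0.47, below it.

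RBM5, RBM10, RBM17, RBM25 and RBM39 are the best known splicing regulators of the family. RBM17, which acts at the second catalytic step, rose by 0.37 and 0.23, the latter not past the test with equal totals, and RBM25, which interacts with the U1 snRNP, rose by 0.30 and 0.21. RBM5 rose by 0.15 and 0.17; with equal totals neither passed and its JQ1 value was -0.034, and with equal upper quartiles the JQ1 value did not pass. RBM10, mutated in lung cancer, had 3431, 3267 and 3385 in the DMSO libraries, 3212, 3057, 3332 and 3464 with JQ1 and 3425, 3449.8 and 3107 with I-BET 762 and did not pass on the deposited scale (-0.043 and -0.016), while with equal totals its JQ1 value was -0.23 and passed (adjusted p = 0.00376). RBM39, the target of aryl sulfonamide degraders, had 15083, 15479 and 15508 in the DMSO libraries, 15171, 16656, 14992 and 15045 with JQ1 and 16066, 16012 and 16038 with I-BET 762 and did not pass on the deposited scale (0.009 and 0.063), while with equal totals its JQ1 value was -0.18 and passed.

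The RBM genes called down were of low or middle count. RBM41, related to a protein of the minor spliceosome (chrX:107061885-107118823), had 818, 931 and 893 in the DMSO libraries, 459, 507, 513 and 405 with JQ1 and 579.6, 584 and 602 with I-BET 762 normalized counts. JQ1 was lowest, I-BET 762 intermediate and DMSO highest with no overlap, and the log2 fold changes were -0.91 (SE 0.083, adjusted p = 7.57e-08), a DEG, and -0.58 (SE 0.089, adjusted p = 3.9e-05), just under the threshold (-0.67 with equal totals). RBM48, a component of the minor spliceosome, had 609, 688 and 663 in the DMSO libraries, 516, 510.3, 462 and 423 with JQ1 and 585, 619 and 551 with I-BET 762, a log2 fold change of -0.45 with JQ1 (adjusted p = 0.000125) and of -0.16 with I-BET 762 (adjusted p = 0.129). With equal totals the values were -0.64, past the fold threshold, and -0.26, past the test (adjusted p = 0.0147), and the I-BET 762 value also passed when only those libraries and DMSO were fitted (adjusted p = 0.0481). RBM44, known from germ cells, had 36.8, 35.1 and 27.3 in the DMSO libraries, 19.8, 18.5, 5.0 and 15.2 with JQ1 and 10.8, 19.0 and 12.8 with I-BET 762, at -1.26 (SE 0.39, adjusted p = 0.00811) and -1.19 (SE 0.41, adjusted p = 0.0206) (chr2:237798389-237842808). Without I-BET 762 21 its value was -1.02 with an adjusted p of 0.077, and it also did not pass without I-BET 762 23, DMSO 13 or DMSO 14. RBM24, a regulator of muscle-specific exons (chr6:17281361-17293871), had 16.5, 13.9 and 14.6 in the DMSO libraries, 7.7, 2.2, 7.0 and 4.1 with JQ1 and 2.0, 3.0 and 10.8 with I-BET 762. It reached 10 normalized counts in all 3 DMSO libraries, no JQ1 library and 1 I-BET 762 library, so it could be tested only because of its DMSO level. Without it, the members called down number 6 with JQ1 and 2 with I-BET 762. Its log2 fold changes of -1.46 (SE 0.51, adjusted p = 0.0172) and -1.61 (SE 0.54, adjusted p = 0.0174) rest on few reads, and without DMSO 13 they did not pass, at -1.40 (adjusted p = 0.059) and -1.55 (adjusted p = 0.0562), and the I-BET 762 value also did not pass without I-BET 762 21 or 22.

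Related genes were set against each other as a ratio within each library, which no scaling of libraries can move by more than the added count of 1. The 15 pairs were chosen after their values were seen, so the ratios are a description, and the exact two-sided permutation test cannot give a p below 0.0571 for 4 against 3 libraries or below 0.1 for 3 against 3. The log2 ratio of SRSF2 to SRSF8 was 3.17 to 3.22 in DMSO, 4.07 to 4.24 with JQ1 and 3.95 to 4.05 with I-BET 762. HNRNPUL2 over HNRNPUL1 moved from -2.48 to -2.26 to -1.50 to -1.30 and -1.88 to -1.67, since HNRNPUL2 rose by 0.31 and 0.28 on the deposited scale while HNRNPUL1 fell. In both pairs the treated and DMSO libraries did not overlap.

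HNRNPH1 over HNRNPH2 was 3.60 to 3.65 in DMSO, 4.18 to 4.40 with JQ1 and 4.12 to 4.27 with I-BET 762. PRPF38B over PRPF38A was 0.045 to 0.14, 0.63 to 0.86 and 0.52 to 0.63, and RBM6 over RBM5 was -0.67 to -0.58, -0.17 to -0.067 and -0.23 to -0.22. RBM5 and RBM6 are neighbours on the same strand with overlapping annotation, so some of their reads may not be separable. Other pairs moved with JQ1 more than with I-BET 762: SRSF3 over SRSF7 was 1.03 to 1.07 in DMSO, 0.70 to 0.79 with JQ1 and 0.996 to 1.03 with I-BET 762. RBM26 over RBM27 was 0.64 to 0.75, 0.34 to 0.52 and 0.55 to 0.69, the last overlapping DMSO. The balance of RBM4 to RBM4B, -0.28 to 0.054 in DMSO and -0.16 to 0.04 and -0.19 to 0.076 in the treated groups, and that of RBM15 to RBM15B overlapped between all groups.

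**Figure D3:**
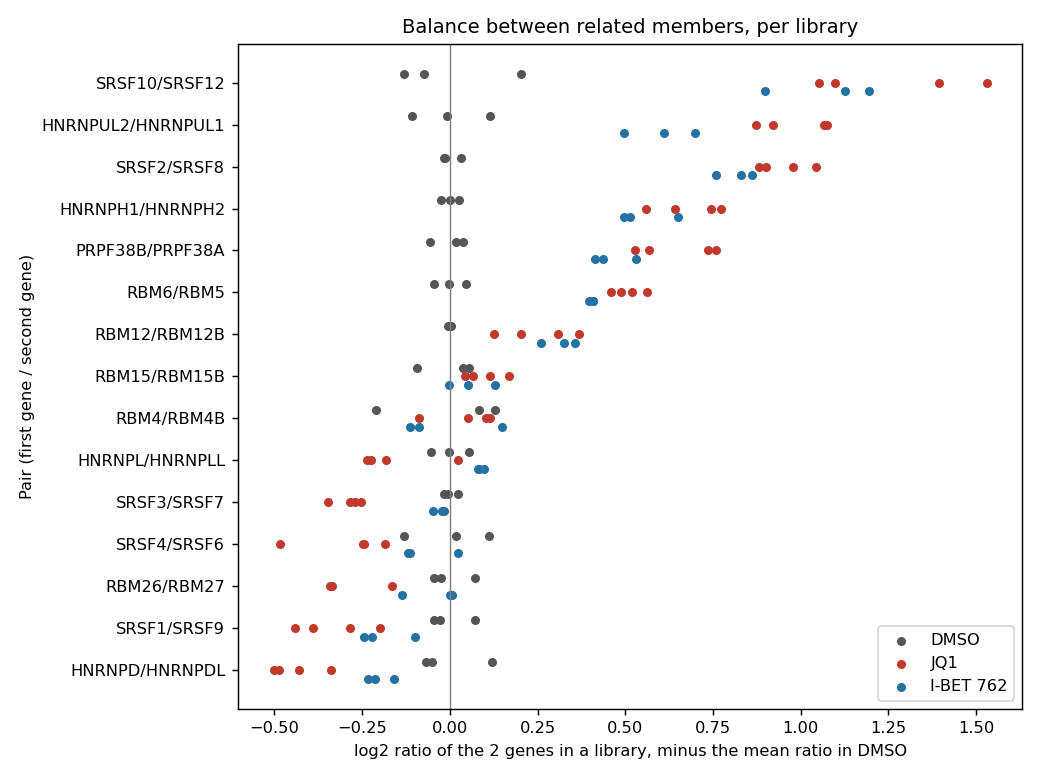
Log2 ratio of the normalized counts of the first to the second gene of each of 15 pairs (vertical axis) in each library, minus the mean ratio in DMSO (horizontal axis); points are libraries, grey for DMSO, red for JQ1 and blue for I-BET 762. The SRSF10/SRSF12, HNRNPUL2/HNRNPUL1 and SRSF2/SRSF8 pairs shifted furthest toward the first gene, and RBM4/RBM4B stayed around 0.

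The inhibitors were compared with each other at the same dose and time, as 1 pair of compounds over all 14839 genes. JQ1 was higher than I-BET 762 in 11 members and lower in 7, beside 13.3% and 14.0% of all genes. With equal totals the counts were 6 and 17. No member was a DEG upward (1.73% of all genes; 11 at an adjusted p under 0.05 with no fold threshold by limma) and RBM47 was the member called downward (3.59% of all genes). RBM47, an RNA-binding protein best known from epithelial cells (chr4:40423267-40630875), had 41.6, 42.5 and 48.2 in the DMSO libraries, 31.9, 29.4, 28.0 and 30.4 with JQ1 and 47.2, 47.1 and 56.1 with I-BET 762 normalized counts. The JQ1 libraries were below all others while DMSO and I-BET 762 overlapped. Its log2 difference between JQ1 and I-BET 762 was -0.72 (95% interval -1.10 to -0.35, adjusted p = 0.00695), and against DMSO it was lower with JQ1, by -0.54 (adjusted p = 0.0116), which without DMSO 15 was -0.48 and did not pass (adjusted p = 0.0547). The epithelial markers summed to 1231 to 1289.7 in DMSO, 517 to 612 with JQ1 and 507 to 547 with I-BET 762, over 6 of 6 markers, with CDH1 at a mean of 8.6 in DMSO; their part was not tested.

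Under every scaling, JQ1 exceeded I-BET 762 in HNRNPAB by 0.42 on the log2 scale (95% interval 0.29 to 0.54), in RBM38 by 0.44 (0.26 to 0.62) and in RBM19, a factor of ribosome assembly, by 0.39 (0.28 to 0.51). RBM19 had 1227, 1316 and 1298 in the DMSO libraries, 1624, 1496, 1577 and 1605 with JQ1 and 1200.5, 1151 and 1250.2 with I-BET 762 normalized counts, with JQ1 above both other groups and I-BET 762 overlapping DMSO. HNRNPF, a relative of HNRNPH1, had 12908, 13913 and 13545 in the DMSO libraries, 15227, 16108, 14954 and 14842 with JQ1 and 13248, 13128 and 12366 with I-BET 762 and differed by 0.24 (0.14 to 0.34). SF3B6 and SRSF7 differed by 0.30 (0.14 to 0.47) and 0.24 (0.12 to 0.37). In the other direction, HNRNPUL1 was lower with JQ1 by -0.35 (-0.45 to -0.26), RBM41 by -0.33 (-0.50 to -0.15), SF3B3 by -0.31 (-0.43 to -0.19), RBM48 by -0.29 (-0.47 to -0.12) and RBM26 by -0.13 (-0.23 to -0.043). RBM23, a close relative of RBM39, passed the test with I-BET 762 and not with JQ1. It had 3516, 3644 and 3608 in the DMSO libraries, 3472, 4017, 3685 and 4118 with JQ1 and 4868, 4615 and 4675 with I-BET 762, with log2 fold changes against DMSO of 0.088 with JQ1 (adjusted p = 0.174) and 0.39 with I-BET 762 (adjusted p = 3.52e-05), and a difference between the inhibitors of -0.31 (-0.43 to -0.19). Its JQ1 value passed as a rise without JQ1 17 (0.13, adjusted p = 0.0342) and was -0.097, not past the test, with equal totals. The differences in SRSF2 (0.20), HNRNPU (0.18), PRPF39 (0.17), HNRNPH1 (0.15) and PRPF38B (0.14) did not pass with equal totals, and the last 2 did not pass with equal upper quartiles.

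For 84 of 102 members no difference between the inhibitors passed the test, which does not show that they act alike. For 87 of 102, called or not, the 95% interval of the difference lay within a fold change of 1.5 in both directions. Examples are PRPF4 at 0.11 (0.00099 to 0.22), RBM18 at 0.10 (-0.04 to 0.24) and SRSF10 at 0.0075 (-0.10 to 0.11). For low-count members the interval was wide, as for RBM24 at 0.15 (-0.93 to 1.23) and PRPF31 at 1.72 (0.0089 to 3.43). Members sat at higher counts than all genes, and the share of all genes with an interval within that fold change is not given here.

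**Figure D4:**
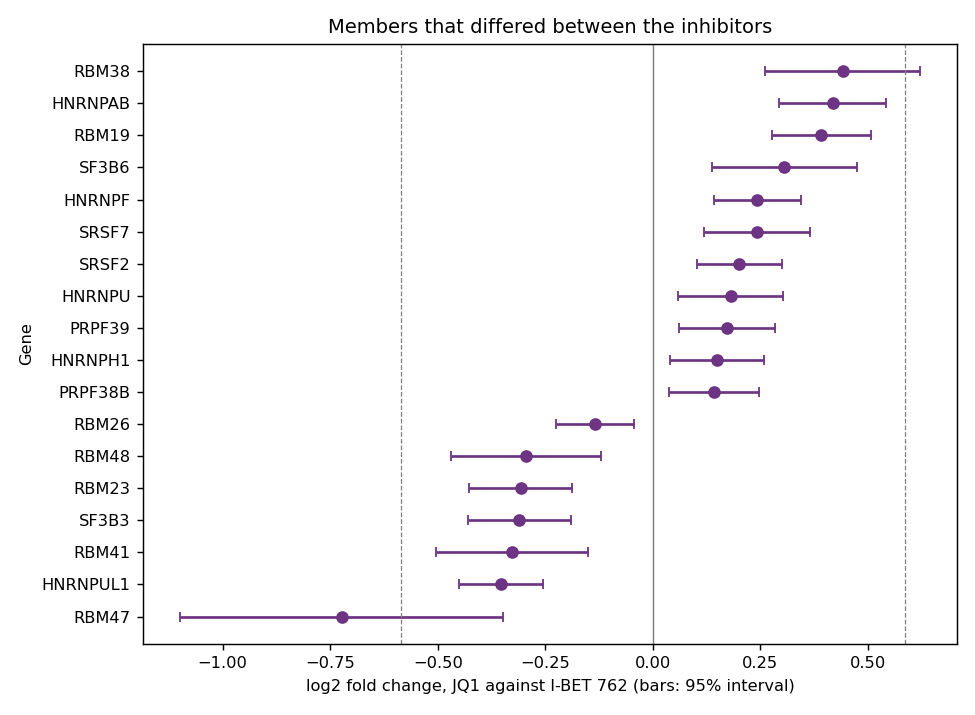
Log2 fold change of JQ1 against I-BET 762 (horizontal axis) for the 18 members (vertical axis) that differed at an adjusted p under 0.05; points are estimates over 4 JQ1 and 3 I-BET 762 libraries, bars are 95% intervals and dashed lines mark a fold change of 1.5. RBM47 lies beyond the dashed line at -0.72, and the others lie between -0.35 and 0.44.

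Some members that every dividing cell needs were listed at or near 0, and their values cannot be read as expression. PRPF8, the largest protein of the spliceosome core, had 1.9, 0 and 0 in the DMSO libraries, 1.1, 1.1, 1.0 and 0 with JQ1 and 0, 0 and 2.0 with I-BET 762 normalized counts and was not tested. PRPF31, which holds the U4/U6 and U5 particles together, had 8.7, 24.0 and 11.8 in the DMSO libraries, 102, 8.7, 117 and 6.1 with JQ1 and 4.9, 10.026 and 10.8 with I-BET 762. The JQ1 libraries 17 and 19 stood apart from the other 8, and its log2 fold change of 1.05 did not pass (adjusted p = 0.254). All exon stretches of 75 bases of both genes (130 in PRPF8 and 31 in PRPF31) occur again, letter for letter, on alternate contigs of hg38, and no other protein-coding member reached such a share there. For U2AF1, which reads the AG at the 3′ splice site, 91.1% of stretches occur more than once in the primary assembly. It had 229.5, 188 and 207 in the DMSO libraries, 485, 260.0, 282 and 265 with JQ1 and 253, 244 and 316 with I-BET 762, or 18.8 per kilobase in DMSO beside 2114 for its partner U2AF2. JQ1 17 lay far above the rest, and the log2 fold changes of 0.58 (SE 0.18, adjusted p = 0.00767) and 0.37 (SE 0.19, adjusted p = 0.0996) are uncertain for this reason. Without JQ1 17 the JQ1 value was 0.37 (adjusted p = 0.0105) and the I-BET 762 value passed (adjusted p = 0.0121), while with equal totals the JQ1 value was 0.40 and did not pass (adjusted p = 0.0815). The handling of reads that match several places was not stated, and its part in these values was not tested. Leaving out JQ1 17 and 19, a choice made after seeing the data, gave 7 members up and 7 down with JQ1.

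Other members share sequence or annotation to a lesser degree. RBM8A, a core protein of the exon junction complex, had 27.9% of stretches copied and rose by 0.40 and 0.30. RBM34 was listed at 39.7, 43.5 and 39.1 in DMSO and overlaps ARID4B on the same strand. RBM4, RBM14 and the read-through RBM14-RBM4 share exons on chromosome 11, and all 3 rose with both inhibitors on the deposited scale, by 0.32, 0.45 and 0.48 with JQ1. Of the 23 members not tested, 18 are pseudogenes or noncoding and 5 are coding (HNRNPA1L2, HNRNPCL1, PRPF8, RBM11 and RBM20), and none exceeded 10.004 normalized counts in any library.

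**Figure D5:**
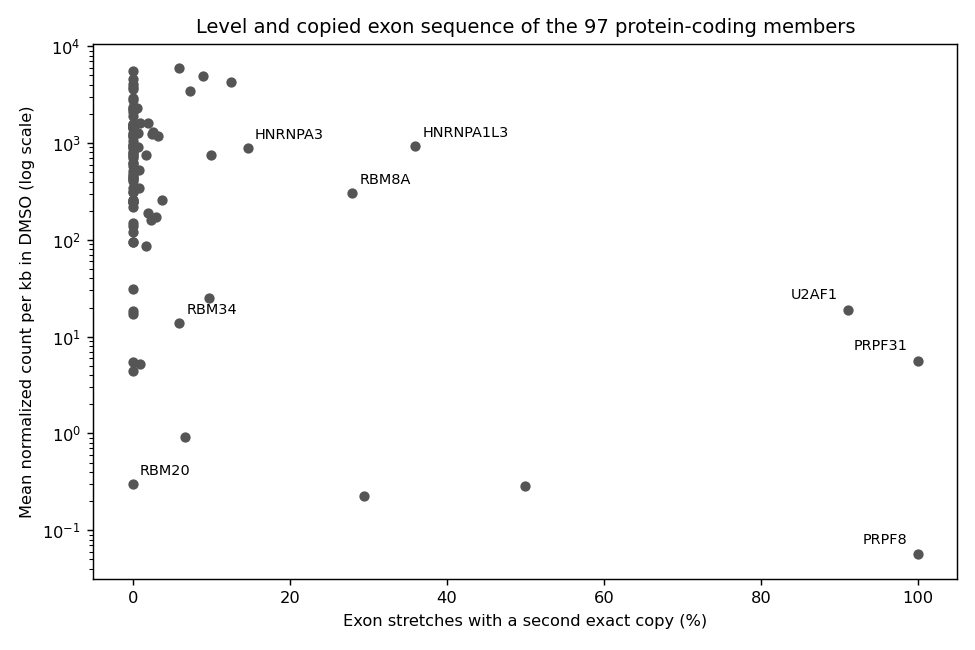
Mean normalized count per kilobase of exon in the DMSO libraries (vertical axis, log scale) against the percentage of 75-base exon stretches with another exact copy, in the primary assembly or on alternate contigs, whichever was higher (horizontal axis); each point is 1 of the 97 protein-coding members. U2AF1, PRPF31 and PRPF8 lie at the right, at 18.8, 5.6 and 0.056 normalized counts per kilobase, below most members at the left.

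Splicing genes outside the symbol rule were described from 5 lists, on the deposited scale. Over all genes 36.0% rose and 35.6% fell with JQ1, and 29.9% and 31.3% with I-BET 762. Of 34 tested Sm, LSm and snRNP proteins, 18 rose and 7 fell with JQ1 and 14 rose and 4 fell with I-BET 762, with medians of 0.17 and 0.063. LUC7L, a U1 snRNP factor, averaged 2645 ± 46.8 in DMSO, 4382 ± 352 with JQ1 and 3729.6 ± 164 with I-BET 762, and rose by 0.72 and 0.49. LSM5, part of the ring on U6 snRNA, averaged 2439 ± 177 in DMSO, 1328 ± 183 with JQ1 and 1736 ± 87.6 with I-BET 762, with log2 fold changes of -0.88 and -0.49. SNRNP25, of the minor spliceosome, rose by 0.63 and 0.67.

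Of 15 SR-related proteins and SR protein kinases, 9 rose and 1 fell with JQ1 and 7 rose and 0 fell with I-BET 762; the scaffold SRRM2 was called up with JQ1 at 0.61. Among 27 NTC, activation and helicase factors, 11 rose (40.7%) and 7 fell (25.9%) with JQ1 and 11 rose (40.7%) and 5 fell (18.5%) with I-BET 762. The share that rose with JQ1 was near the 36.0% of all genes. BUD31 rose by 0.79 with JQ1, CWC27 fell by 0.75, and PUF60, a U2AF2-related factor, averaged 255.6 ± 82.9 in DMSO, 451 ± 227 with JQ1 and 746 ± 257 with I-BET 762, with a wide spread within each group. Of 17 factors of nonsense-mediated decay, 13 rose and 1 fell with JQ1 and 11 rose and 1 fell with I-BET 762. The cap-binding subunit NCBP2 averaged 2852 ± 243 in DMSO, 6155 ± 211 with JQ1 and 5165 ± 123 with I-BET 762 and EIF4A3, the anchor of the exon junction complex, rose by 0.77 with JQ1, while MAGOHB had -0.77.

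The largest changes lay among 34 other regulators of alternative splicing, of which 17 rose and 8 fell with JQ1 and 13 rose and 8 fell with I-BET 762. KHDRBS3, a STAR-family regulator, averaged 75.3 ± 14.5 in DMSO, 408 ± 34.3 with JQ1 and 383 ± 13.2 with I-BET 762, a rise of 2.44 (SE 0.12) and 2.35 (SE 0.13). CIRBP, a cold-inducible RNA-binding protein, averaged 2512 ± 89.1 in DMSO, 6407 ± 237 with JQ1 and 5091 ± 98.5 with I-BET 762, a rise of 1.35 and 1.02. CELF2, a regulator of muscle and neural exons, averaged 654 ± 29.9 in DMSO, 153 ± 20.6 with JQ1 and 227 ± 19.4 with I-BET 762, at -2.10 and -1.53. PTBP2, the neural form of the polypyrimidine tract-binding protein, averaged 2059.8 ± 55.3 in DMSO, 915 ± 63.3 with JQ1 and 1287 ± 52.2 with I-BET 762, at -1.17 and -0.68, and ESRP2, an epithelial regulator of low count, had -1.54 with JQ1. All of these values are limma log2 fold changes on the deposited scale, and no tested member of the family moved as far with either inhibitor as KHDRBS3 or, with JQ1, CELF2.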

How the data were processed

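Whole-transcriptome RNA-seq of SK-UT-1 cells was deposited as 1 table of log2 values. The authors trimmed reads (Trimmomatic), aligned them to hg38 (HISAT2 2.2.1), counted them per gene (featureCounts 2.0.3), normalized the counts with DESeq2 and deposited log2(normalized count + 1); tool names follow the submitters' processing notes. Libraries were strand-specific, but the strand setting of the counting and the treatment of reads with several matches are not given in the sources used here. The authors excluded outlier samples from their analysis. Whether the labelled libraries absent from the table were those outliers is not stated in the paper. Values were taken back to normalized counts, and division by the step of 1 read gave whole reads (within 0.01 reads) for 99.73 to 99.77% of values, which gave the depths.

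The log2 values were fitted in R 4.3.3 with limma 3.58.1 (empirical Bayes with intensity trend, pseudocount 1, all 10 libraries of the 3 groups, no covariate) over 14839 genes with a normalized count of at least 10 in at least 3 libraries. Adjusted p-values are Benjamini-Hochberg over these genes. A fold change is on the log2(value + 1) scale, which understates the change of low genes. The fitting code was run on simulated data in which few genes changed and the size factors were known. That run does not test the choice of scaling. The count-based tools the study used were replaced by limma because the deposited values are logarithms, and limma-voom on the recovered reads was an alternative. Gene positions, exon lengths and overlaps came from Gencode 44 on hg38, not the version used for counting, and all 125 symbols matched 1 gene. Exon stretches of 75 bases were searched in 194 primary sequences and 261 alternate contigs. Start-site windows came from RefSeq.

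The named genes were every member called with an inhibitor or between inhibitors, fixed representatives of each role, and at most 2 called rises and falls per list; related pairs and members that differed between inhibitors were added after their values were seen. The members and lists were chosen with earlier results of these data known. Alternatives were other pseudocounts, filters, scalings, fold thresholds and fits, and each library left out. Results on some items are not reported here.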

Additional observations from a re-analysis of the deposited data

Results flagged for a closer look

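Among the 70 members named or used in pairs whose 4 JQ1 libraries differed, the gap between the most extreme library and the next exceeded Dixon's 95% critical value, as a share of the range, in 7; chance flags about 1 in 20 such groups. The groups of 3 libraries were not tested. U2AF1 stood at 485 normalized counts in JQ1 17 and at 260.04 to 282 in the other JQ1 libraries. PRPF8 was listed at 0 in JQ1 20 and at 1.0 to 1.1 in the others, a difference of a single read. In JQ1 18, SRSF3 was highest at 25634 (others 20989.7 to 21627), SRSF7 at 14831 (12618 to 12945), RBM39 at 16656 (14992 to 15171) and RBM18 at 2447 (2060 to 2100). RBM15B was lowest in the same library, at 4891 (5439 to 5528). Without JQ1 18, the members called with JQ1 against DMSO numbered 8 up and 7 down.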

How the results depend on the processing

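No paired analysis was possible because the replicate numbers of the 3 groups (13 to 24) differ throughout. With equal totals, JQ1 had 3 members called up and 11 called down, I-BET 762 had 2 up and 7 down, the median log2 fold change of the members was -0.025 with JQ1, 0.042 with I-BET 762 and -0.064 for JQ1 against I-BET 762, and 12 single-gene JQ1 values that passed the test on the deposited scale or on this one turned sign: HNRNPD -0.15, HNRNPF -0.0015, HNRNPK -0.0014, HNRNPL -0.18, HNRNPLL -0.027, PRPF3 -0.019, PRPF6 -0.052, RBM39 -0.18, RBM5 -0.034, SRSF1 -0.12, SRSF11 -0.021 and SRSF3 -0.011. HNRNPC, HNRNPM, RBM15B, RBM23 and SF3A1 also turned negative with JQ1, past the test on neither. Equal upper quartiles gave 5 members down with I-BET 762 and medians of 0.10 and 0.10 with JQ1 and I-BET 762. Dropping the fold threshold gave JQ1 53 up and 15 down, I-BET 762 47 up and 12 down, and 11 up and 7 down between the inhibitors; with a fold change over 2, 2 were up and 3 down with JQ1, 1 was up with I-BET 762 and 0 differed downward between the inhibitors. Requiring a mean of at least 100 left 3 down with JQ1, 2 up and 0 down with I-BET 762 and 0 down between the inhibitors (median 0.054), because low-count members were no longer tested. Apart from the counts with no fold threshold, the shares of all genes under these settings are not given here. The same holds for every count with libraries left out, so none of these counts has a background beside it.

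When single libraries were left out, JQ1 had 7 to 9 members called up and 5 to 7 down. I-BET 762 had 3 to 5 up and 1 to 4 down, with 1 down without I-BET 762 21. Between the inhibitors 0 to 2 were up (PRPF31 without JQ1 18, PRPF31 and HNRNPD-DT without JQ1 20) and 1 was down. The test was no longer passed without at least 1 single library by PRPF38A, PRPF6, RBM24, RBM47 and SRSF3 with JQ1. With I-BET 762 these were HNRNPA2B1, HNRNPD, HNRNPL, PRPF6, RBM24, RBM26-AS1, RBM44, SF3B1, SRSF11, SRSF3 and SRSF6, and between the inhibitors HNRNPH1, HNRNPU, PRPF38B, PRPF39, RBM26, RBM48 and SF3B6. With some single library left out, the test was newly passed by HNRNPH2, HNRNPM, PRPF31, RBM15B, RBM23 and RBM26 with JQ1, HNRNPH2, HNRNPK, PRPF38A, SRSF1 and U2AF1 with I-BET 762, and HNRNPD-DT, HNRNPDL, HNRNPL, HNRNPLL, PRPF31, RBM12, RBM15, RBM15B, RBM17, SRSF4, SRSF5 and U2AF2 between the inhibitors. Without JQ1 18 the JQ1 value of SRSF3 was 0.11, past the test. Pseudocounts of 0.5 and 5 and limma-voom on reads left every count of called members within 1.5 times its reported value. At the depth of these libraries, counts under 30 in some or all libraries limit what can be said of RBM24, RBM44, HNRNPA1P6, RBM26-AS1, HNRNPD-DT and RBM47.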
